A study of Mus musculus with 12 samples.

Results

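The genes described here are 10 genes that mark epithelial or mesenchymal cells: *Cdh1*, *Epcam*, *Cldn6*, *Krt8*, *Krt18*, *Cdh2*, *Vim*, *Snai1*, *Zeb1* and *Zeb2*. They were picked by symbol from the 42450 gene identifiers of a count table of mouse embryonic stem cells, and all 10 passed the filter on low counts that left 19410 genes for testing. The question was how the levels of these genes differed between cells with and without knockdown of *Srrm2*, between 24 h and 72 h, and between the experiments.

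Epithelial cells hold to each other through E-cadherin and tight junctions and carry keratin filaments, while mesenchymal cells express N-cadherin and vimentin filaments and move singly. The switch between these states, the epithelial-mesenchymal transition (EMT), is driven by the transcription factors of the SNAIL and ZEB families, which bind E-box sequences and repress epithelial genes such as *Cdh1*. Mouse embryonic stem cells grow as compact colonies joined by E-cadherin, and an EMT takes place when cells of the embryo leave the epiblast at gastrulation.

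E14tg2a.4 is a male mouse embryonic stem cell line derived from strain 129 that self-renews in the presence of the cytokine LIF. All cells were transfected with 50 nM siRNA, which targeted *Srrm2*, the gene of a nuclear speckle protein involved in splicing, in Srrm2-KD, and the luciferase gene Gl2, absent from these cells, in Gl2-KD. As a derivative of E14Tg2a the line lacks functional *Hprt*, which was at 0.283 to 0.645 CPM (counts per 1000000) in all 12 libraries. The cells were in serum-free ESGRO medium with LIF before collection, and were collected at 24 h or, after a second transfection with the same siRNA, at 72 h. Time after the first transfection, the second transfection and the time in serum-free medium therefore cannot be told apart. Each of 3 independent experiments had all 4 conditions, which gave 12 polyA+ libraries with 3 per group. The samples are bulk RNA of 1 cell line, so that fewer cells expressing a gene and less RNA of it per cell cannot be told apart.

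Library totals ranged from 73933196 to 153343831 estimated counts. *Srrm2* was lower in the Srrm2-KD library of all 6 pairs that shared an experiment and a time point, with a log2 fold change over both time points of -1.19 (standard error, SE, 0.10, edgeR adjusted p = 0.0025). At the single time points its log2 fold changes of -1.22 at 24 h and -1.16 at 72 h had edgeR adjusted p-values of 0.0663 and 0.0991, so that the targeted gene was not itself called there by edgeR, while limma-voom called it at both (0.0277 and 0.0218), as did DESeq2 (5.03e-11 and 1.72e-09). Experiment 1 stood apart on the first principal component (42.0% of the variance), its 4 libraries lying on one side and the other 8 on the other side, and *Srrm2* itself was at 461 to 962 CPM in experiment 1 against 154 to 496 CPM in the other 2 experiments. The stem cell markers were present at high levels, with a mean of 1541 CPM for *Pou5f1* and 1819 CPM for *Dppa5a*, and the 10 markers of this list summed to between 5434 and 7962 CPM in every library.

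Per kilobase of the longest transcript, *Cdh1* had the highest mean level of the 10 genes, at 94.9 CPM per kb (range over the 12 libraries 69.6 to 112). *Vim*, the gene of the filament protein vimentin, came next at 72.1 CPM per kb (39.6 to 101). It was followed by the paired simple-epithelium keratins *Krt18* at 17.5 (2.54 to 53.9) and *Krt8* at 10.4 (1.63 to 29.2), and by the tight junction gene *Cldn6* at 9.40 (1.92 to 17.9). The remaining genes lay lower on this scale. *Cdh2*, the gene of N-cadherin, had 2.51 CPM per kb (0.503 to 4.34), *Zeb1* had 1.99 (0.894 to 4.37), *Snai1* had 0.731 (0.345 to 1.51) and *Zeb2* had 0.141 (0.0508 to 0.412). The ranges of every pair of neighbours in this order overlapped. With the median transcript length in place of the longest, *Vim* (156 CPM per kb) stood above *Cdh1* (131 CPM per kb), so their order rests on the length taken.

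*Epcam*, the gene of an epithelial adhesion molecule, was listed at or near 0. Its levels in experiments 1, 2 and 3 were 0.0800, 0.107 and 0.210 CPM with Gl2 siRNA at 24 h and 0.0924, 0.290 and 0.180 CPM with Srrm2 siRNA at 24 h. At 72 h they were 0, 0.314 and 0 CPM with Gl2 siRNA and 0.0436, 0 and 0.436 CPM with Srrm2 siRNA. *Ndufa4*, the gene of a respiratory chain subunit that cells in general use, was also listed at 0 to 0.356 CPM in these libraries. A value of 0 for *Epcam* therefore says only that the gene was listed at 0, and no fold change is given for it. The descriptions of differences that follow cover the other 9 genes.

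*Krt8* (ENSMUSG00000049382, chr15:101996698-102004482, reverse strand) and *Krt18* (ENSMUSG00000023043, chr15:102028180-102032027, forward strand) lie 23697 bases apart in GRCm38. *Cldn6* (ENSMUSG00000023906, chr17:23679249-23682446, forward strand) lies 108085 bases from *Srrm2*. *Cdh1* (ENSMUSG00000000303) lies at chr8:106603351-106670246, *Vim* (ENSMUSG00000026728) at chr2:13573927-13582826, *Snai1* (ENSMUSG00000042821) at chr2:167538195-167542814 and *Zeb2* (ENSMUSG00000026872) at chr2:44983632-45117395. The transcript of *Krt8* shares 98.6% identity over 941 bases with the processed pseudogene *Krt8-ps*, and that of *Krt18* shares 90.5% over 1267 bases with the processed pseudogene *Gm5200*. Neither pseudogene was found by symbol among the identifiers of the count table. The counts of both keratins are uncertain to the extent that reads of these copies were assigned to them. *Zeb2* overlaps the antisense gene *Zeb2os* over 172 bases. *Zeb2os* was at 0 to 0.0214 CPM, and the libraries were made with a strand-specific kit.

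The E-box that SNAIL and ZEB proteins bind is spelled CACCTG, or CAGGTG on the other strand, and the 250 bases before the RefSeq transcript starts were searched for it on both strands. Windows (GRCm38.p6) of *Vim*, *Zeb2*, *Snai1*, *Krt18*, *Cldn6* and *Epcam* were searched, and 4 of their 9 windows, those of 4 of these 6 genes, had at least 1 match, against 17.2% of all 32851 windows. *Cdh1*, *Cdh2*, *Zeb1* and *Krt8* are not given here. The matches read as follows, 5′ to 3′ on the strand of the gene, with the E-box in capitals. They are shown because this motif is the one through which the 3 transcription factors described here act.
*Krt18*, chr15:102027990-102028019, forward strand, first base of the E-box 214 bases before the start: aggggctaacacCACCTGctatcctttgtg
*Cldn6*, chr17:23679260-23679289, forward strand, 93 bases before the start: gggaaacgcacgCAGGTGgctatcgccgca
*Snai1*, chr2:167538057-167538086, forward strand, 126 bases before the start: gcagcccaggcgCACCTGctccggtctcag
*Epcam*, chr17:87635780-87635809, forward strand, 187 bases before the start: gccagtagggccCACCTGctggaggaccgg
*Epcam*, chr17:87635948-87635977, forward strand, 19 bases before the start: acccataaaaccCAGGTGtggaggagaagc
In the GENCODE M21 annotation, the match of *Cldn6* lies inside the gene, because its first exon starts further upstream there. The window of *Vim* and those of *Zeb2*, except chr2:45117443-45117692, also lie inside the gene in that annotation. The *Zeb2* windows chr2:45113254-45113503 and chr2:45113280-45113529 overlap each other. A match describes letters and not a bound site, and the windows of *Vim* and *Zeb2* without a match say only that these letters are not in them.

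**Figure D1:**
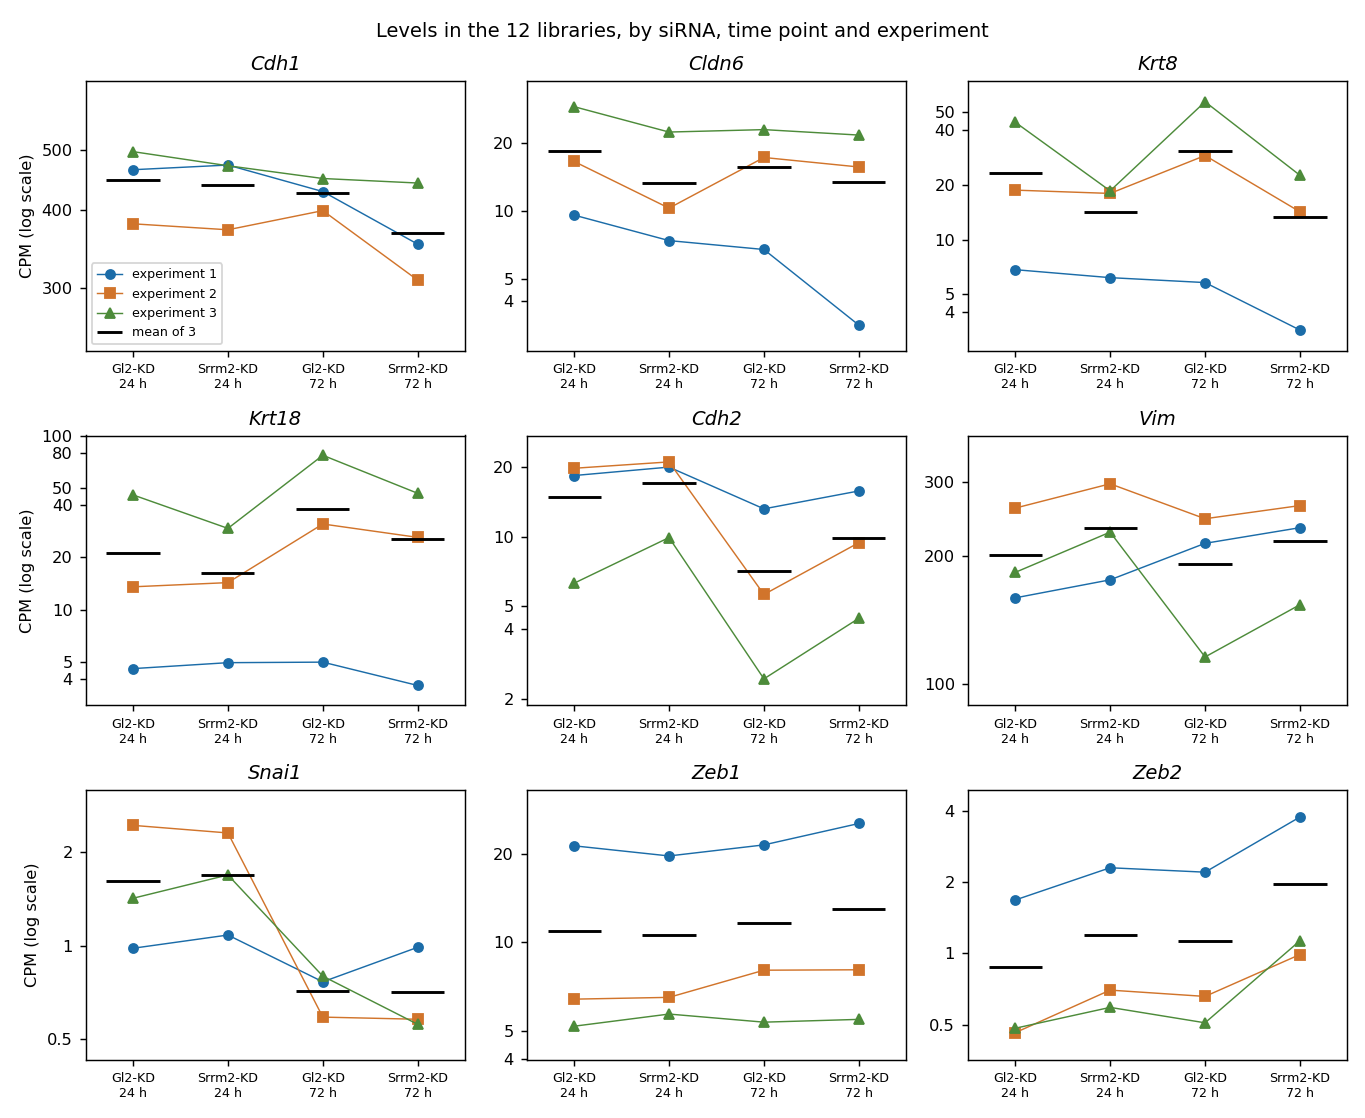
Level of 9 genes in each of the 12 libraries, in CPM on a log axis with its own range for each gene, for Gl2-KD and Srrm2-KD at 24 h and 72 h. Points joined by a line belong to 1 experiment and black bars are means of 3 libraries. In *Cldn6*, *Krt8* and *Krt18* experiment 1 lies below the other experiments in every condition, and in *Zeb1* and *Zeb2* it lies above them.

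The first comparison asked whether *Srrm2* knockdown was accompanied by a shift of these genes towards one of the states. None of the 10 genes passed the test at 24 h or at 72 h (edgeR quasi-likelihood, p-values adjusted over all genes by Benjamini-Hochberg), where the share of all genes called was 0% at 24 h and 0% at 72 h. Without adjustment 508 genes had a p below 0.05 at 24 h, none of them among the 10, and 2498 at 72 h, of which 4 were *Cdh1*, *Krt8*, *Cdh2* and *Zeb2*. DESeq2 called 25 genes at 24 h and limma-voom 2, with none of the 10 among them. At 72 h limma-voom called 4 genes, again without any of the 10, while DESeq2 called 2.79% of all genes (542) and among them 2 of the 10, *Krt8* and *Zeb2*. Averaged over both time points, edgeR called 0.067% of all genes (13) and 0 of the 10, with 2633 genes and 3 of the 10 at an unadjusted p below 0.05. DESeq2 called 3.78% (733) and again *Krt8* and *Zeb2*, and limma-voom called 92 genes and 0 of the 10.

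*Krt8* showed the widest difference between the siRNAs at 72 h among the 9 genes, though not at 24 h, where *Cldn6* and *Zeb2* were as far apart. At 24 h its levels in experiments 1, 2 and 3 were 6.83, 18.7 and 44.2 CPM with Gl2 siRNA and 6.18, 17.9 and 18.5 CPM with Srrm2 siRNA. At 72 h they were 5.81, 29.0 and 57.2 CPM with Gl2 siRNA and 3.18, 14.2 and 22.6 CPM with Srrm2 siRNA. *Krt8* was lower in Srrm2-KD in all 6 pairs, but the groups overlapped, because the experiments differed by more than the siRNAs. The fitted level in Srrm2-KD was 73.5% of Gl2-KD at 24 h (log2 fold change -0.44, SE 0.26, adjusted p = 1 in edgeR) and 46.5% at 72 h (-1.10, SE 0.26, unadjusted 95% interval -1.67 to -0.54, adjusted p = 0.151). At 24 h most of the difference came from experiment 3, with a log2 ratio of -1.25 against -0.15 and -0.06 in experiments 1 and 2, whereas at 72 h the ratios of the 3 experiments were -0.87, -1.03 and -1.34. DESeq2 gave an adjusted p of 0.00230 at 72 h. In edgeR the difference at 72 h passed the threshold in the 72 h libraries fitted alone (adjusted p = 0.0133), with 6 blocks that joined experiment and time point (0.0299) and when the Srrm2-KD 24 h library from experiment 3 was left out (0.0479), and over all 15 fits that left out a library or an experiment its adjusted p ranged from 0.0479 to 0.949. Over both time points *Krt8* had a log2 fold change of -0.77 (SE 0.18, edgeR adjusted p = 0.118), which passed the threshold with DESeq2 (0.00177), with the 6 blocks (0.0199), without the filter on low counts (0.0464) and when the Srrm2-KD 24 h library from experiment 1 was left out (0.0258).

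*Krt18*, whose protein forms filaments with that of *Krt8*, had smaller differences. Its levels in experiments 1, 2 and 3 were 4.57, 13.5 and 45.8 CPM with Gl2 siRNA and 4.95, 14.3 and 29.4 CPM with Srrm2 siRNA at 24 h, and 4.98, 31.1 and 77.4 CPM with Gl2 siRNA and 3.66, 26.1 and 46.7 CPM with Srrm2 siRNA at 72 h. Srrm2-KD was the lower library in 1 of 3 pairs at 24 h and in 3 of 3 at 72 h, and the groups overlapped at both. The log2 fold changes were -0.13 (SE 0.26) and -0.47 (SE 0.26, interval -1.04 to 0.09, adjusted p = 0.481 in edgeR). On leaving out a library or an experiment the value at 72 h lay between -0.76 and -0.30, and that at 24 h changed sign (-0.48 to 0.10).

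The claudin gene *Cldn6*, an early marker of epithelial differentiation, was lower in Srrm2-KD in all 6 pairs. It had 9.59, 16.6 and 29.1 CPM with Gl2 siRNA and 7.39, 10.3 and 22.4 CPM with Srrm2 siRNA at 24 h in experiments 1, 2 and 3. At 72 h it had 6.74, 17.3 and 23.005 CPM with Gl2 siRNA and 3.11, 15.7 and 21.8 CPM with Srrm2 siRNA. The groups overlapped, and at 72 h only experiment 1 showed a difference above 0.2 on the log2 scale, at -1.12. The log2 fold changes of -0.46 (SE 0.27) and -0.37 (SE 0.27) had edgeR adjusted p-values of 1 and 0.601, and no setting tried called either. Their sizes rested on single libraries or experiments, since omissions gave -0.71 to -0.24 at 24 h and -0.70 to -0.041 at 72 h.

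*Cdh1*, which encodes E-cadherin, varied least of the 9 genes between libraries, with a ratio of 1.61 between the highest and the lowest. It had 465, 380.5 and 498 CPM with Gl2 siRNA and 473, 372 and 472 CPM with Srrm2 siRNA at 24 h, and 429, 399.6 and 450.2 CPM with Gl2 siRNA and 353, 309 and 443 CPM with Srrm2 siRNA at 72 h. At 24 h the siRNAs lay within 0.08 of each other on the log2 scale in every experiment, and at 72 h Srrm2-KD was the lower library in all 3. The log2 fold change was -0.03 (interval -0.23 to 0.17) at 24 h and -0.23 (interval -0.43 to -0.03, adjusted p = 0.335 in edgeR) at 72 h.

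Among the mesenchymal genes, *Cdh2* was higher in Srrm2-KD in all 6 pairs. Its levels in experiments 1, 2 and 3 were 18.4, 19.7 and 6.30 CPM with Gl2 siRNA and 19.96, 21.02 and 9.91 CPM with Srrm2 siRNA at 24 h. At 72 h they were 13.2, 5.63 and 2.44 CPM with Gl2 siRNA and 15.8, 9.42 and 4.45 CPM with Srrm2 siRNA. The libraries of both siRNAs overlapped at both times. The fitted level in Srrm2-KD was 122.7% of Gl2-KD at 24 h and 149% at 72 h (log2 fold change 0.58, SE 0.25, interval 0.02 to 1.14, adjusted p = 0.373 in edgeR). Leaving out a library or an experiment moved the log2 value between 0.086 and 0.54 at 24 h and between 0.38 and 0.97 at 72 h. Over both time points the value was 0.44 (SE 0.18, adjusted p = 0.315), and it passed the threshold in 1 alternative, the 6 blocks of experiment and time point (adjusted p = 0.0406).

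*Vim* was also higher in Srrm2-KD in all 6 pairs, by smaller steps. It had 159.7, 260.1 and 183 CPM with Gl2 siRNA and 176, 297 and 228 CPM with Srrm2 siRNA at 24 h, and 215, 245 and 116 CPM with Gl2 siRNA and 234, 264 and 154 CPM with Srrm2 siRNA at 72 h. The log2 fold changes were 0.23 (SE 0.20, interval -0.21 to 0.66) and 0.20 (SE 0.20, interval -0.24 to 0.63), and neither was called under any setting tried.

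Of the transcription factors, *Zeb2* was higher in Srrm2-KD in all 6 pairs, at a low level. Its levels in experiments 1, 2 and 3 were 1.68, 0.463 and 0.484 CPM with Gl2 siRNA and 2.30, 0.701 and 0.592 CPM with Srrm2 siRNA at 24 h, and 2.20, 0.659 and 0.510 CPM with Gl2 siRNA and 3.76, 0.990 and 1.13 CPM with Srrm2 siRNA at 72 h. The groups overlapped because experiment 1 stood above the others under both siRNAs. The fitted level in Srrm2-KD was 136% of Gl2-KD at 24 h (log2 fold change 0.45, SE 0.22, adjusted p = 1) and 178% at 72 h (0.83, SE 0.22, interval 0.36 to 1.31, adjusted p = 0.173 in edgeR). DESeq2 called *Zeb2* at 72 h (adjusted p = 0.0146) and over both time points (0.00649), and limma-voom did not (0.114 and 0.0784). In edgeR the value over both time points, 0.64 (SE 0.15, adjusted p = 0.119), passed the threshold with the 6 blocks of experiment and time point (0.0333).

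The related gene *Zeb1* had 21.3, 6.41 and 5.18 CPM with Gl2 siRNA and 19.7, 6.498 and 5.70 CPM with Srrm2 siRNA at 24 h, and 21.4, 8.04 and 5.35 CPM with Gl2 siRNA and 25.3, 8.06 and 5.47 CPM with Srrm2 siRNA at 72 h. In experiments 2 and 3 the siRNAs lay close together at both times. Its log2 fold changes were 0.02 (interval -0.27 to 0.30) and 0.09 (interval -0.19 to 0.38). *Snai1*, the gene of the SNAIL repressor, had 41 to 343 counts per library. Its log2 fold changes of 0.08 (interval -0.76 to 0.91) and 0.01 (interval -0.86 to 0.87) had no direction shared by the experiments, and these intervals leave room for a difference of the size seen in *Zeb2*.

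**Figure D2:**
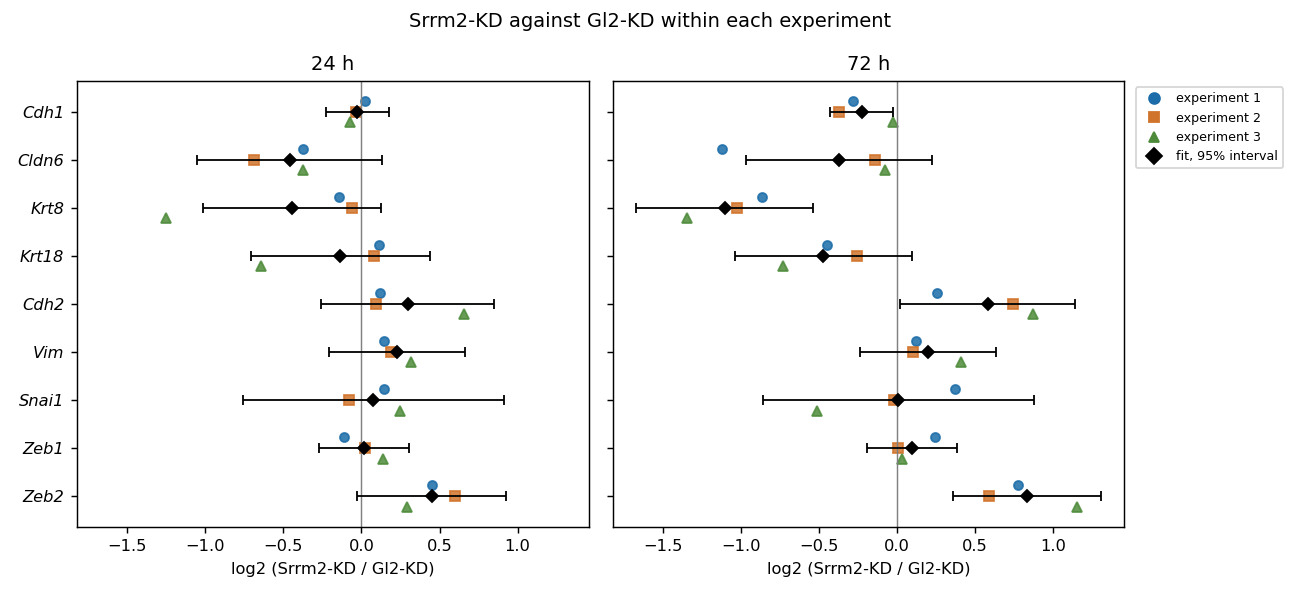
Log2 ratio of Srrm2-KD to Gl2-KD at 24 h in the left and 72 h in the right panel for 9 genes. Coloured points are the ratios of CPM in each of the 3 experiments, diamonds are the fitted values and bars are unadjusted 95% intervals of the fit. *Krt8* lies left of 0 and *Zeb2* and *Cdh2* lie right of 0 in every experiment at both times, and the intervals of *Krt8*, *Zeb2*, *Cdh2* and *Cdh1* at 72 h do not reach 0.

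In all, *Krt8*, *Cldn6*, *Cdh2*, *Vim* and *Zeb2* had the same direction in all 6 pairs of siRNAs, which is 5 of the 10 genes against 14.3% of all genes tested. The epithelial genes *Krt8* and *Cldn6* were lower in Srrm2-KD, and *Cdh2*, *Vim* and *Zeb2* were higher. The median log2 fold change of the 9 genes was 0.02 at 24 h and 0.01 at 72 h, beside 0.01 and -0.02 for all genes tested, since the directions of the genes offset each other. Whether the response at 72 h differed from that at 24 h was tested as an interaction. EdgeR called 0% of all genes and 0 of the 10 (with 319 genes and none of the 10 below 0.05 before adjustment). DESeq2 called 2 genes, and limma-voom called 0. The widest values of this difference were -0.66 (SE 0.36) for *Krt8* and 0.38 (SE 0.30) for *Zeb2*, with an adjusted p of 1 for each.

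Ratios of genes within a library are free of the scaling between libraries. The log2 ratio of *Krt8* to *Krt18* in experiments 1, 2 and 3 was 0.58, 0.47 and -0.05 with Gl2 siRNA and 0.32, 0.33 and -0.66 with Srrm2 siRNA at 24 h. At 72 h it was 0.22, -0.10 and -0.44 with Gl2 siRNA and -0.20, -0.87 and -1.05 with Srrm2 siRNA. Relative to *Krt18*, *Krt8* was lower in Srrm2-KD in 6 of 6 pairs, with a median difference of -0.52 (range -0.77 to -0.14), and lower at 72 h than at 24 h in 6 of 6 pairs, with a median of -0.45 (range -1.20 to -0.36). A ratio shows unequal differences and not which of its genes differed.

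The log2 ratio of *Cdh1* to *Cdh2*, the cadherins exchanged in an EMT, at 24 h was 5.08 ± 1.08 (SD, n = 3) with Gl2 siRNA and 4.76 ± 0.733 with Srrm2 siRNA. At 72 h it was 6.23 ± 1.26 with Gl2 siRNA and 5.39 ± 1.12 with Srrm2 siRNA. It was lower in Srrm2-KD in 6 of 6 pairs, with a median difference of -0.63 (range -1.12 to -0.10). With time it was higher in 5 of 6 pairs, with a median difference of 0.98 (range -0.08 to 1.88). The log2 ratio of *Cdh1* to *Vim* was lower in Srrm2-KD in 6 of 6 pairs as well, by a median of -0.40 (range -0.48 to -0.12), and had no shared direction with time (higher in 3 of 6 pairs). These ratios combine genes whose single differences are given above, and no separate test was made of them. The ratio to *Vim* was chosen after the values were seen, in place of one with *Epcam*.

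**Figure D3:**
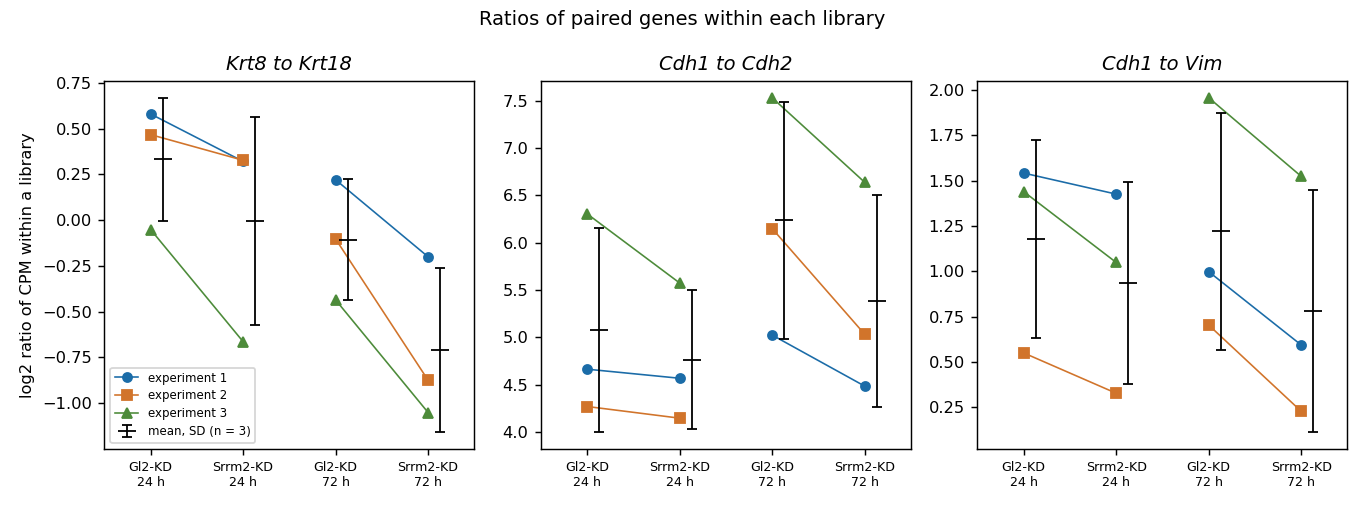
Log2 ratio of the CPM of *Krt8* to *Krt18*, *Cdh1* to *Cdh2* and *Cdh1* to *Vim* within each library, with lines joining Gl2-KD and Srrm2-KD of the same experiment and time point, and means with SD (n = 3). Every one of the 6 lines in each panel runs downwards from Gl2-KD to Srrm2-KD.

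The second comparison followed the cells from 24 h to 72 h. EdgeR called 1.45% of all genes (282) in Gl2-KD and 1 of the 10, *Cdh2*. In Srrm2-KD it called 0.551% (107) and 0 of the 10, with 3156 genes and 4 of the 10 at an unadjusted p below 0.05. In these Srrm2-KD libraries limma-voom called 259 genes and 0 of the 10, and DESeq2 called 5.47% (1061) and among them *Cdh2* and *Zeb2*. The Gl2-KD libraries enter both this comparison and that of the siRNAs, so that their values are not independent.

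*Cdh2* fell by 1.19 on the log2 scale in Gl2-KD (SE 0.26, adjusted p = 0.0498 in edgeR), to 43.8% of its level at 24 h, and was lower in 3 of 3 experiments (log2 ratios -0.48, -1.81 and -1.37). In Srrm2-KD its level at 72 h was 53.3% of that at 24 h (log2 fold change -0.91, SE 0.26, interval -1.47 to -0.35, adjusted p = 0.124), again lower in 3 of 3 experiments. The groups overlapped under both siRNAs because experiment 3 lay below the others at both times. The value in Gl2-KD stands at the threshold. It was also called by DESeq2, which called 1338 genes in all, and by limma-voom (adjusted p = 0.0365), which called 482. It was also kept with library totals only, another dispersion fit, no filter and a stricter filter. It was lost at log2 values of about the same size with RLE factors (-1.21, adjusted p = 0.0504), without the block for the experiment (-1.06, 1) and with Gl2-KD fitted alone (-1.22, 0.0658). The same held on leaving out experiment 3 (-1.12, 0.176). On leaving out experiment 2 it was lost at a smaller value (-0.89, 0.652). Of the 12 single libraries, 3 could be omitted with the call kept, those of Srrm2-KD at 24 h from experiments 1 and 3 and of Gl2-KD at 72 h from experiment 1 (0.0282, 0.0403 and 0.0235), and omitting any other lost it (0.0599 to 0.263). Without experiment 1 it passed in Gl2-KD and also in Srrm2-KD (adjusted p = 0.0215 and 0.0454).

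*Snai1* was lower at 72 h in 6 of 6 pairs. In experiments 1, 2 and 3 it had 0.983, 2.44 and 1.42 CPM at 24 h and 0.766, 0.590 and 0.799 CPM at 72 h in Gl2-KD, and 1.08, 2.31 and 1.69 CPM at 24 h and 0.990, 0.581 and 0.559 CPM at 72 h in Srrm2-KD. It was the sole one of the 10 genes whose 24 h and 72 h libraries did not overlap, under either siRNA, where 7.27% of all genes in Gl2-KD and 7.48% in Srrm2-KD did not overlap. The log2 fold changes of -1.11 (SE 0.39) and -1.18 (SE 0.40) had edgeR adjusted p-values of 0.182 and 0.185, 0.0618 and 0.0552 in DESeq2, and were called under no setting tried.

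*Zeb2* was higher at 72 h in 6 of 6 pairs, with log2 fold changes of 0.33 (SE 0.22, adjusted p = 0.490) in Gl2-KD and 0.72 (SE 0.22, adjusted p = 0.145 in edgeR, 0.0353 in DESeq2) in Srrm2-KD. Together with *Cdh2* and *Snai1*, which were lower, 3 of the 10 genes had the same direction in all 6 pairs of time points, against 16.9% of all genes. *Krt18* was higher at 72 h in 3 of 3 experiments in Gl2-KD (log2 fold change 0.71, SE 0.26, adjusted p = 0.196) and in 2 of 3 in Srrm2-KD (0.37, SE 0.26). *Krt8* had 0.28 and -0.38, *Cldn6* -0.27 and -0.18, *Cdh1* -0.06 and -0.26, and *Zeb1* 0.13 and 0.21 in Gl2-KD and Srrm2-KD, with SEs of 0.09 to 0.27, and none was called under any setting tried. *Vim* moved in opposite directions in the experiments, with log2 ratios of 0.43, -0.08 and -0.66 with Gl2 siRNA and 0.41, -0.17 and -0.57 with Srrm2 siRNA in experiments 1, 2 and 3, and its fitted values were -0.09 and -0.12.

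**Figure D4:**
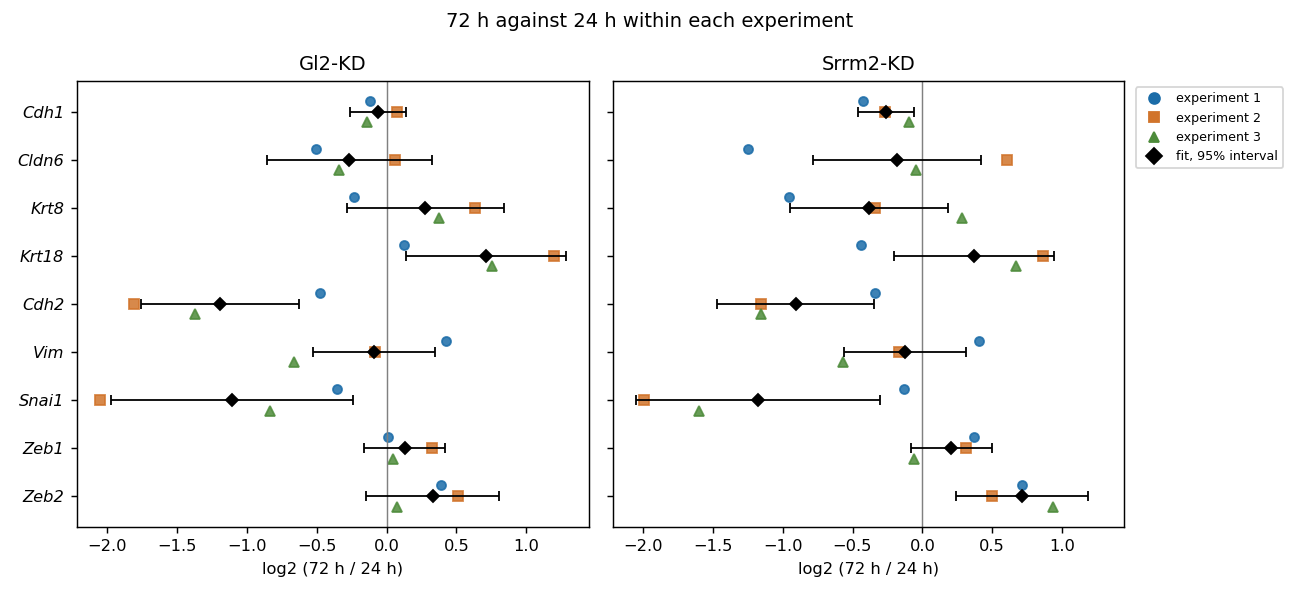
Log2 ratio of 72 h to 24 h in Gl2-KD (left) and Srrm2-KD (right) for 9 genes. Coloured points are the ratios of CPM in each of the 3 experiments, diamonds are the fitted values and bars are unadjusted 95% intervals of the fit. *Cdh2* and *Snai1* lie left of 0 and *Zeb2* right of 0 in every experiment, and the points of *Vim* fall on both sides.

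The experiments differed from each other by more than the conditions did for most of these genes. *Cldn6*, *Krt8* and *Krt18* were lower and *Zeb1* and *Zeb2* were higher in all 4 libraries of experiment 1 than in all 8 of the others, which is 5 of the 10 genes against 30.5% of all genes tested. *Krt18* was at 3.66 to 4.98 CPM in experiment 1, 13.5 to 31.1 CPM in experiment 2 and 29.4 to 77.4 CPM in experiment 3. *Krt8* was at 3.18 to 6.83 CPM, 14.2 to 29.0 CPM and 18.5 to 57.2 CPM. The medians over the 4 conditions put *Krt18* 7.21-fold, *Krt8* 4.86-fold and *Cldn6* 2.60-fold lower in experiment 1 than in the others.

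*Zeb2* was 3.56-fold and *Zeb1* 3.47-fold higher in experiment 1 by the same measure. *Zeb1* was at 19.7 to 25.3 CPM in experiment 1, 6.41 to 8.06 CPM in experiment 2 and 5.18 to 5.70 CPM in experiment 3. For *Zeb1* and *Cldn6* all 3 experiments were separated without overlap, in opposite order, which is 2 of the 10 genes against 2.35% of all genes. The means of the experiments spanned 3.38 on the log2 scale in *Krt18*, 2.60 in *Krt8*, 2.01 in *Zeb1*, 1.95 in *Cldn6*, 1.90 in *Zeb2* and 1.70 in *Cdh2*, and the means of the 4 conditions spanned 0.84, 1.08, 0.22, 0.71, 1.16 and 1.51. *Snai1* was the exception, with 0.31 between experiments and 1.24 between conditions. *Srrm2* was higher in experiment 1 too, and the part of the experiment in the differences above was taken up by the block and not tested further.

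Other genes of the same states were read from lists, which were chosen with earlier results of these data known. Of 25 further genes of epithelial junctions and keratins, 24 were lower in Srrm2-KD at 72 h, with a median log2 fold change of -0.28 beside -0.02 for all genes, of which 52.1% were lower. EdgeR and limma-voom called 0 of them, and 10 had an unadjusted p below 0.05 in edgeR. DESeq2 called 4 of them, all lower. These, named after their values were seen, were *Tjp3* of the tight junction (-1.32, SE 0.32), the membrane protease *St14* (-0.65, 0.14), *Dsp* of the desmosome (-0.87, 0.23) and *Cldn7* (-0.65, 0.20). At 24 h 20 of the 25 were lower, with a median of -0.11.

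Of 10 epithelial regulators, 9 were lower at 72 h, with a median of -0.28 and 0 called by edgeR or limma-voom, where 1 had an unadjusted p below 0.05. The most abundant were *Klf5*, at a mean of 185 CPM and a log2 fold change of -0.03 (SE 0.12), and *Esrp1*, a splicing factor of epithelial cells, at 88.4 CPM and -0.12 (SE 0.10). DESeq2 called 1, *Elf3* (-0.45, SE 0.11), named after its value was seen.

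The genes of mesenchymal cells lay on the same side. Of the 26 tested of 28, 21 were lower in Srrm2-KD at 72 h, with a median of -0.31 and 0 called by edgeR or limma-voom (9 at an unadjusted p below 0.05). Of the 28 genes, 9 had a mean below 1 CPM. The fibronectin gene *Fn1*, at a mean of 825 CPM, had a log2 fold change of -0.45 (SE 0.13, adjusted p = 0.203) and the integrin gene *Itgb1*, at 138 CPM, of -0.02 (SE 0.09). DESeq2 called 3, all lower and named after their values were seen, the collagen gene *Col5a1* (-1.18, SE 0.27), the smooth muscle gene *Tagln* (-1.62, 0.41) and *S100a6* (-1.22, 0.32). In experiment 1 *Tagln* was at 0.224 to 0.857 CPM. The mesenchymal list at 72 h thus lay on the side opposite to *Cdh2*, *Vim* and *Zeb2*, and both lists lay on the side of *Krt8*.

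Of the 14 further transcription factors of EMT, 13 were tested and 8 had a mean below 1 CPM. Of those tested, 8 were lower at 72 h, with a median of -0.12, and edgeR and DESeq2 called 0, with 0 at an unadjusted p below 0.05. *Tcf3* at 177 CPM and *Klf8* at 29.3 CPM, the most abundant, had log2 fold changes of -0.16 (SE 0.09) and 0.04 (SE 0.15). The TGF-beta pathway, whose ligands induce EMT in many epithelia, had 8 of 11 tested genes lower, with a median of -0.07, 0 called by edgeR or DESeq2 and 3 at an unadjusted p below 0.05. Its most abundant genes, the repressors *Tgif1* and *Skil*, had -0.15 (SE 0.10) and 0.38 (SE 0.24).

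With time, 1 gene of these lists was called by edgeR, *Krt7*, a keratin of simple epithelia that also stands in the trophectoderm list. In experiments 1, 2 and 3 it was at 1.14, 1.23 and 5.64 CPM with Gl2 siRNA and 1.06, 1.41 and 4.83 CPM with Srrm2 siRNA at 24 h, and at 2.84, 6.996 and 18.6 CPM with Gl2 siRNA and 2.32, 7.07 and 16.9 CPM with Srrm2 siRNA at 72 h. *Krt7* was higher at 72 h in every experiment and the siRNAs lay close together, with log2 fold changes of 1.83 (SE 0.27, adjusted p = 0.0144) in Gl2-KD and 1.77 (SE 0.26, adjusted p = 0.0333) in Srrm2-KD. DESeq2, with 1338 calls in Gl2-KD and 1061 in Srrm2-KD, called more genes of these lists. In Gl2-KD it called 4 junction and keratin genes, all higher, *Krt7* and, named after their values were seen, *Cldn7*, *St14* and *Tjp3*. DESeq2 also called these, except *Krt7*, lower in Srrm2-KD at 72 h, which uses the same Gl2-KD libraries. It called 2 mesenchymal genes, 1 epithelial regulator and 1 EMT factor lower in Gl2-KD. In Srrm2-KD it called genes of these lists in both directions.

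**Figure D5:**
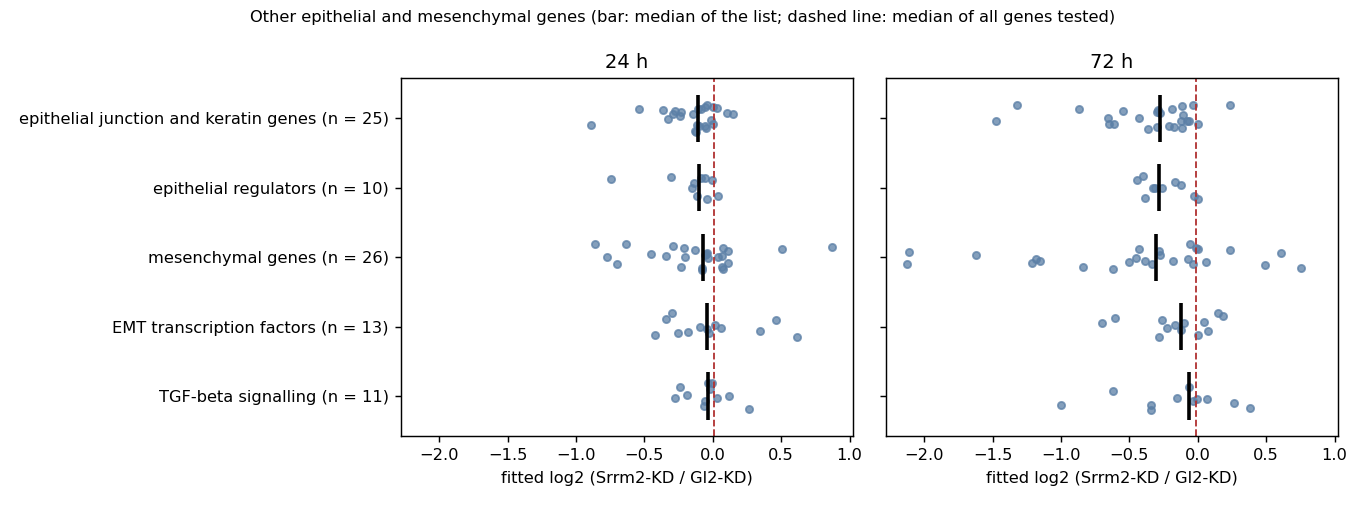
Fitted log2 ratio of Srrm2-KD to Gl2-KD at 24 h in the left and 72 h in the right panel for the tested genes of 5 lists. Each point is a gene, black bars are the medians of the lists and the dashed line is the median of all genes tested. At 72 h the medians of both epithelial lists (-0.28 each) and of the mesenchymal list (-0.31) lie left of that line.

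*Krt8* and *Krt18* are also expressed by trophectoderm and primitive endoderm cells, which stem cell cultures could hold. The 10 trophectoderm markers, of which 9 were tested, summed to 81.7 to 114 CPM with Gl2 siRNA and 78.2 to 111 CPM with Srrm2 siRNA at 24 h. At 72 h these sums were 126 to 146 CPM with Gl2 siRNA and 79.6 to 116 CPM with Srrm2 siRNA. Of the 9 tested genes, 6 were lower in Srrm2-KD at 72 h, with a median of -0.12 and 0 called by edgeR. DESeq2 called 2, *Tfap2c* and *Tead4*, both lower and named after their values were seen. *Tfap2c* and *Tead4* also made up most of the summed level in every library, while *Cdx2*, which defines trophectoderm, was at 0 to 0.209 CPM. The 10 primitive endoderm markers summed to 149.6 to 186 CPM with Gl2 siRNA and 149.9 to 155 CPM with Srrm2 siRNA at 24 h, and to 134 to 188 CPM and 101 to 143 CPM at 72 h. Of these, 6 were lower in Srrm2-KD at 72 h, with a median log2 fold change of -0.44 and 0 called by edgeR or DESeq2. Over both times DESeq2 called 1, *Col4a1* (-0.53, SE 0.15), named after its value was seen. Most of the sum came from *Lamb1* and *Lama1*, and *Gata6* was at 0.0308 to 0.356 CPM. The part of such cells in the keratin values was not tested.

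In the other marker lists most genes were at low levels. No gene of the primitive streak, neural and fibroblast lists was called by edgeR in any of the 6 comparisons, 7, 5 and 7 of their 10, 8 and 10 genes had a mean below 1 CPM, and their medians at 72 h were -0.12, -0.27 and -0.45. The most abundant of them were *Eomes* and *Kdr*, *Tubb3* and *Nes*, and *Thy1* and *Pdgfrb*, at means of 3.54, 1.45, 59.5, 29.4, 11.5 and 1.45 CPM. The stem cell markers had a median of -0.14 at 72 h with 0 called by edgeR or DESeq2, and values of -0.09 (SE 0.08) for *Pou5f1* and -0.33 (SE 0.15) for *Dppa5a*. Of these 10 markers, 3 had an unadjusted p below 0.05 in edgeR at 72 h, and 3 over both times. Over both times DESeq2 called 1 of them, *Tfcp2l1*, lower and named after its value was seen. The part of any change in the state of the stem cells in the values of the 10 genes was not tested.

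After the mean of each experiment was taken off, the 12 libraries were used to describe which genes ran alongside *Cdh1*, *Vim* and *Krt8* among 8785 genes with a mean of at least 10 CPM. These correlations of log2 CPM share libraries and depth and are given as descriptions. *Cdh1* ran most closely with *Rtn3* (Pearson r = 0.97), *Cyfip1* (0.96) and *Rbm47* (0.95), *Vim* with *Tsr1* (0.98), *Caprin1* (0.97) and *Aqr* (0.97), and *Krt8* with *Poc1b* (0.96), *Fam81a* (0.94) and the desmosome gene *Dsp* (0.94). Among the genes described here, *Krt8* ran with *Krt18* (0.64) and against *Vim* (-0.70), *Vim* ran against *Krt18* (-0.71), and *Cdh1* ran against *Zeb1* (-0.63) and with *Krt8* (0.60) and *Cldn6* (0.68). Not all pairs followed a split of epithelial against mesenchymal genes, since *Cdh1* had 0.20 with *Cdh2* and -0.0024 with *Krt18*. The remaining pairs that were computed, each with *Cdh1*, *Vim* or *Krt8*, had the sign of such a split, with -0.21 for *Cdh1* with *Vim*. Pairs among the other genes, and those with *Zeb2* or *Snai1*, were not computed. *Vim* had 0.60 with *Cdh2*, 0.22 with *Zeb1* and -0.45 with *Cldn6*. *Krt8* had 0.57 with *Cldn6*, -0.49 with *Cdh2* and -0.36 with *Zeb1*. The correlations with *Srrm2*, the gene the siRNA lowered, were 0.74 for *Krt8*, 0.49 for *Cdh1* and -0.44 for *Vim*. The difference between the siRNAs enters these values, so they are not separate from the comparison of the siRNAs.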

How the data were processed

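RNA of the 12 samples was sequenced after polyA selection as 100-bp paired-end, strand-specific libraries. The authors quantified reads against the GENCODE M24 mouse transcriptome, and the submitters' processing notes name kallisto 0.46.1 and mm10. The deposited table holds estimated counts per Ensembl gene identifier, not normalised, and the step from transcripts to genes was not described in these sources. Between 33.9% and 43.1% of values in a library were not whole, and counts were rounded. Symbols came from GENCODE M21 (GRCm38), which held 42156 of the 42450 identifiers. The other 294 carried 0.175% of counts.

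Counts were tested in R 4.3.3 with edgeR 4.0.16 (filterByExpr with a minimum count of 10 and a minimum total of 15, TMM factors, glmQLFit and glmQLFTest) on all 12 libraries, with 4 groups and the experiment number as a block, and Benjamini-Hochberg adjustment over 19410 genes at a threshold of 0.05. The authors' own model had the day of RNA processing as a covariate. Which library was processed on which day was not stated, and the experiment stood in its place. The submitters' design text describes independent experiments, and the deviations from group means of the 18 pairs of libraries with the same number correlated at 0.28 to 0.75 across genes, against -0.63 to 0.23 for the 36 pairs with different numbers, so the numbers were taken to pair the libraries. CPM are counts per 1000000 counts of the TMM-scaled library. The p-values measure the spread between these cultures of 1 line that is left within experiments, since the block takes up the differences between experiments. The procedure was also run on simulated counts, which held no differences between experiments and so cannot show how the choice of block affects the calls. Alternatives were DESeq2 1.42.0, limma-voom 3.58.1, other scaling, dispersion, filters and blocks, single conditions, and each library or experiment left out. E-box matches were read in RefSeq windows of GRCm38.p6, where those of *Krt8*, *Cdh1*, *Cdh2* and *Zeb1* are not reported here, and similar transcripts were sought with blastn.

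The 10 genes and all lists were chosen with earlier results of these data known. Named in full were the 10 genes and *Srrm2*, and of each list the called genes, at most 4 per comparison, or else the 2 most abundant. Genes outside this rule are said to be named after their values were seen.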

Additional observations from a re-analysis of the deposited data

How the results depend on the processing

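The number of calls moved with the tool, the block and the filter, for which the cause was not tested. Of the 10 genes, DESeq2 called 2 at 72 h, 2 over both time points and 2 with time in Srrm2-KD, beside 2.79%, 3.78% and 5.47% of all genes. EdgeR called 0 of the 10 in each of these. A replicate block for each pair of experiment and time point called 1 and 3 of the 10 at 72 h and over both times, beside 724 and 1124 genes in all. The 72 h libraries alone called 1, beside 323 genes in all, and no filter called 1 over both times, beside 123. With time in Gl2-KD the 1 call became 0 with RLE factors, with no replicate block and with Gl2-KD alone. With no replicate block, that is without this pairing of libraries, edgeR called 0 genes over both times and 0 with time under either siRNA.

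Over all genes, the count at 24 h (0) became 25 with DESeq2, 2 with limma-voom and 1 with legacy=FALSE, with no filter or with at least 10 counts per library. At 72 h (0) it became 542, 4, 5, 42 and 1 in that order, 724 with the 6 blocks and 323 with 72 h alone. Over both times (13) it became 733, 92, 79, 123 and 93, 25 with RLE factors and 1124 with the 6 blocks. For the difference between the times (0) it became 2 with DESeq2 and 1 with no filter. With time in Gl2-KD (282) it became 1338, 482 and 624 with DESeq2, limma-voom and legacy=FALSE, 476 with at least 10 counts per library and 158 with Gl2-KD alone. In Srrm2-KD (107) it became 1061, 259, 279, 212 with no filter, 176 with at least 10 counts per library and 0 with Srrm2-KD alone. Leaving out a library or an experiment gave 0 to 10, 0 to 55, 0 to 288, 0 to 2, 0 to 387 and 0 to 135 genes in these comparisons, and 0 to 1 of the 10 genes at 72 h, over both times and with time under each siRNA.

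Directions turned in values of 0.23 or less in size. *Zeb1* at 24 h (0.02) became -0.020 with limma-voom, -0.0016 with legacy=FALSE and -0.043 with no replicate block. *Snai1* at 72 h (0.01) became -0.011 with no replicate block, -0.042 with the 6 blocks and -0.044 with 72 h alone. In the difference between the times *Vim* (-0.03) became 0.011 and *Snai1* (-0.07) became 0.038 with limma-voom, and *Snai1* 0.16 with legacy=FALSE. *Cldn6* with time in Srrm2-KD (-0.18) became 0.015 with no replicate block. Leaving out a library or an experiment also turned some values. At 24 h the ranges were -0.48 to 0.10 in *Krt18*, -0.0019 to 0.41 in *Vim*, -0.19 to 0.48 in *Snai1* and -0.093 to 0.080 in *Zeb1*. At 72 h they were -0.019 to 0.41 in *Vim* and -0.58 to 0.26 in *Snai1*, and over both times -0.25 to 0.24 in *Snai1* and -0.0057 to 0.088 in *Zeb1*. For the difference between the times they were -0.23 to 0.43 in *Cldn6*, -0.24 to 0.19 in *Vim*, -0.66 to 0.27 in *Snai1* and -0.063 to 0.18 in *Zeb1*. With time they were -0.37 to 0.17 in *Vim* in Gl2-KD, and -0.38 to 0.12 in *Vim* and -0.62 to 0.27 in *Cldn6* in Srrm2-KD. By level, the median transcript length put *Vim*, *Cdh1*, *Cldn6*, *Krt8*, *Zeb1*, *Cdh2*, *Zeb2* and *Snai1* at ranks 1, 2, 4, 5, 6, 7, 8 and 9, and the union of exons put *Epcam* at rank 9 and *Zeb2* at rank 10.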
